A study of Mus musculus with 10 samples.

Results

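The V(D)J recombination machinery was followed through Notch-induced T cell differentiation in culture as 10 named genes out of 24062 gene rows per library. The genes were the lymphoid recombinase genes Rag1 and Rag2, the terminal transferase gene Dntt, the end-joining genes Dclre1c, Prkdc, Xrcc5, Xrcc6, Lig4 and Xrcc4, and the cofactor gene Hmgb1. They were chosen by name, and all 10 passed the filter of at least 1 CPM (counts scaled to a fixed total per library) in at least 2 libraries, among 12221 genes that did so. The 10 RNA-seq libraries came from cultures of C57BL/6J bone marrow LSK cells (Lin-SCA1+KIT+ progenitors) without a transgene or deletion. DN1 (KIT++CD44+CD25-), DN2a (KIT++CD44+CD25+) and DN2b (KIT+CD44lo CD25+) cells, 2 libraries each, were sorted from progenitors grown on a high density of the immobilised Notch ligand Delta1ext-IgG. The no Notch control, 4 libraries, was the same kind of progenitor grown on human IgG and harvested at day 14. All cultures had SCF, FLT-3 ligand, IL-6 and IL-11, and IL-7 was added from day 14 to the cultures that gave DN2a and DN2b, so stage and IL-7 cannot be told apart in any comparison of DN2a or DN2b with DN1 or with the control. Within a year the DN1 labels carry an earlier date than those of DN2a and DN2b, without saying what the date marks. Time in culture may therefore differ with stage as well. Libraries are in vitro populations and not thymocytes, and in bulk RNA fewer cells of a type and less RNA per cell cannot be told apart.

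V(D)J recombination assembles antigen receptor genes from separate gene segments in developing lymphocytes. RAG1 and RAG2 together cut DNA beside the segments, helped by the DNA-bending protein HMGB1, and leave hairpin-sealed coding ends. The Ku heterodimer, encoded by Xrcc5 (Ku80) and Xrcc6 (Ku70), binds the broken ends and recruits the kinase DNA-PKcs (Prkdc), which activates the nuclease Artemis (Dclre1c) to open the hairpins. Terminal deoxynucleotidyl transferase (Dntt) adds bases without a template, and DNA ligase IV (Lig4) with its partner XRCC4 seals the joint. The recombinase and Dntt are restricted to developing lymphocytes, whereas the end-joining factors repair double-strand breaks in most cells.

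Libraries held 12354635 to 35367925 reads on genes, and no library repeated another. The summed level of 6 T lineage marker genes was 1.16 to 4.15 CPM in the control, 378 to 477 CPM in DN1, 1295 to 1755 CPM in DN2a and 2243 to 3243 CPM in DN2b. Il2ra, which encodes CD25, averaged 1.13 CPM in the control, 24.1 CPM in DN1, 1392 CPM in DN2a and 1939 CPM in DN2b, lower in DN1 than in the CD25+ stages as sorted. The summed level of 6 granulocyte and monocyte markers was 19524 to 50663 CPM in the control, 1867 and 99.5 CPM in DN1 replicates 1 and 2, 6.52 to 8.69 CPM in DN2a and 2.99 to 4.49 CPM in DN2b. Mast cell and basophil markers summed to 31.7 to 142 CPM in the control, 454 to 1720 CPM in DN1, 387 to 562 CPM in DN2a and 254 to 469 CPM in DN2b, and by edgeR 3 of the 4 rose in DN1, 1 rose and 1 fell in DN2a, and 1 rose and 2 fell in DN2b over the control. Cpa3 rose in all 3 stages (log2FC 4.19, 3.70 and 3.29), while Mcpt8 fell in DN2a (-2.53) and DN2b (-4.01) and Fcer1a in DN2b (-4.44). Erythroid and megakaryocyte markers summed to 240 to 915 CPM in the control and 19.1 to 605 CPM in the DN libraries. Of the 4 tested, Klf1 (log2FC 5.27), Gata1 (4.51) and Itga2b (4.16) rose and Pf4 fell in DN1 over the control, Itga2b rose (3.34) and Pf4 fell in DN2a, and Pf4 fell in DN2b. The DN1 rises of Klf1 and Gata1 rested on 1 library. Klf1 was at 0.649 and 61.4 CPM in DN1 (control 0.254 to 1.38), and Gata1 at 2.06 and 94.9 CPM (control 0.226 to 4.35). The mast cell marker Gata2 was likewise at 16.9 and 200 CPM in DN1 (control 3.22 to 18.1). NK and innate lymphoid markers summed to 17.2 to 163 CPM in the control and 182 to 250 CPM in the DN libraries, with none of the 3 tested called. The control thus carried high granulocyte and monocyte marker levels, and the part of these marker differences in the comparisons was not tested.

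Most of the machinery was higher in Notch-exposed cells than in the control, whereas few differences between the DN stages passed the test. Differences were tested with edgeR (quasi-likelihood, p adjusted by Benjamini and Hochberg's method over the 12221 genes, threshold 0.05). In DN1 over the control 7 of the 10 genes rose and 1 fell, where 31.4% of all genes were called, 14.3% higher and 17% lower. In DN2a 7 rose and 1 fell (45.5% of all genes, 21.2% higher and 24.3% lower), and in DN2b 8 rose and 1 fell (42.5%, 19.9% higher and 22.5% lower). Without any test, the values of 8, 9 and 9 of the 10 genes did not overlap with the control's in DN1, DN2a and DN2b, as for 50.7%, 61.6% and 57.7% of all genes. Between DN2a and DN1 none of the 10 genes was called (background 0.401%), with 1 at an unadjusted p under 0.05 and 0 called by DESeq2. DN2b differed from DN2a in none of the 10 (background 0%), with 2 at an unadjusted p under 0.05 and 1 called by DESeq2, where edgeR had 335 of all genes at an unadjusted p under 0.05 and DESeq2 called 29. DN2b over DN1 gave 2 of the 10, Dntt and Lig4, both higher (background 1.91%, and 1.01% higher). The median log2 fold change (log2FC) of the 10 genes over the control was 1.44, 1.93 and 2.44 in the order of the stages, beside 0.01, -0.05 and -0.05 over all genes tested. The 3 comparisons share the 4 control libraries.

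**Figure D1:**
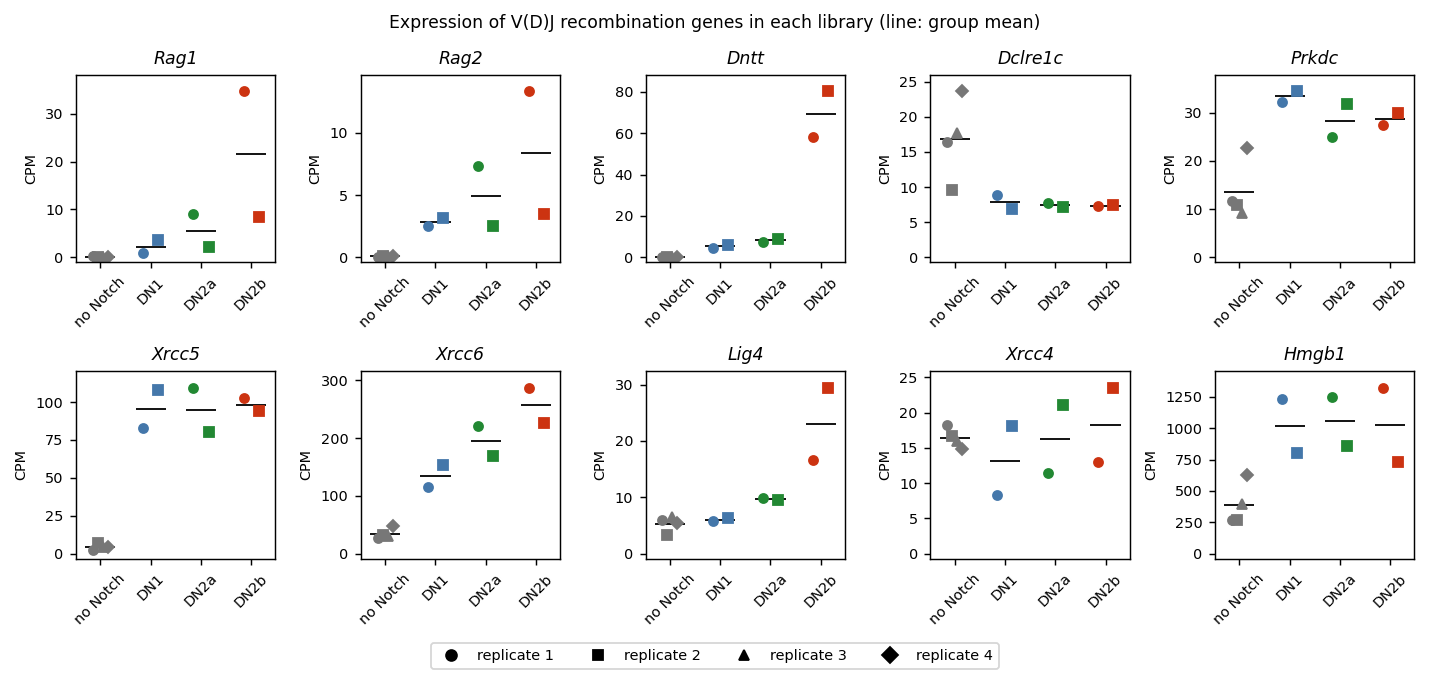
CPM of each of the 10 genes in each library, with 1 panel per gene on its own linear scale, symbols for replicates and a line at the group mean. Rag1, Rag2, Dntt, Xrcc5 and Xrcc6 sit above every control library in all 6 DN libraries, Dclre1c sits below all 4 control libraries, and Xrcc4 overlaps the control.

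Rag1 and Rag2 lie tail to tail on chromosome 2 (GRCm38, GENCODE vM21), Rag1 at chr2:101638282-101649501 on the minus strand and Rag2 at chr2:101624718-101632529 on the plus strand. Dntt lies at chr19:41029275-41059525 on the plus strand. The study asked how the CpG content of promoters relates to their response to Notch dose, so the 250 bases before the RefSeq start (GRCm38.p6) of these lymphoid genes are shown with that of a broadly expressed end-joining gene, Xrcc6, for contrast. Each reads 5′ to 3′ on the gene's strand, and capitals mark CpG dinucleotides.
Rag1 (chr2:101649533-101649782, minus strand): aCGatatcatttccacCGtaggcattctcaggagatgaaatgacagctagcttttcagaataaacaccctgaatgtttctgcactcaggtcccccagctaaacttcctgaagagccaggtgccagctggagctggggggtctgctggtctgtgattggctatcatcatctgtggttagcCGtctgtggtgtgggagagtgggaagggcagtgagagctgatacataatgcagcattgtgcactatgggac
Rag2 (chr2:101624462-101624711, plus strand): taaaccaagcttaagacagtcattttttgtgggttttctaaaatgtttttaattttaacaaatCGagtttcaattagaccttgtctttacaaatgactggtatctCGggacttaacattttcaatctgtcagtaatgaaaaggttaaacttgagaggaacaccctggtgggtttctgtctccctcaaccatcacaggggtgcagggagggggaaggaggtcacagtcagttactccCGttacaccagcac
Dntt (chr19:41029025-41029274, plus strand): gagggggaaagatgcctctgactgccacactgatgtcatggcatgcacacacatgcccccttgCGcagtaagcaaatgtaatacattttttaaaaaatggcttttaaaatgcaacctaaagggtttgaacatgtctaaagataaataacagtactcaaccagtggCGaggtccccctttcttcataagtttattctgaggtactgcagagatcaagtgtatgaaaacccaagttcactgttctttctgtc
Xrcc6 (chr15:82016119-82016368, plus strand): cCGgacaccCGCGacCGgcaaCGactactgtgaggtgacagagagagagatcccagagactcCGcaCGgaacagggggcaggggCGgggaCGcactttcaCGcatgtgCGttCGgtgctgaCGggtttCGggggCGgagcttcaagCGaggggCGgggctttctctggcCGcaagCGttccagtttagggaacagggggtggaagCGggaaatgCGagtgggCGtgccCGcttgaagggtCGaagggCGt
The Rag1 and Rag2 stretches hold 3 CpG each and that of Dntt 2, whereas that of Xrcc6 holds 25.

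Rag1, the DNA-cutting subunit of the recombinase, was close to undetected without Notch. It had 4, 0, 2 and 1 counts in the 4 control libraries, 21 and 65 in DN1 replicates 1 and 2, 250 and 29 in DN2a, and 534 and 104 in DN2b. Scaled to depth these were 0 to 0.194 CPM in the control, 0.928 and 3.52 CPM in DN1, 9.11 and 2.08 CPM in DN2a, and 34.7 and 8.42 CPM in DN2b. Every DN library was above every control library, but the DN1 and DN2a libraries overlapped, as did those of DN2a and DN2b. The pooled CPM ratio to the control was 33.1 for DN1 (exact 95% interval 15.4 to 84.9), 107 for DN2a (51.2 to 268) and 365 for DN2b (176 to 911). These intervals cover counting error only and rest on 7 control reads. Rag1 rose over the control in all 3 stages by edgeR, with a log2FC of 4.73 in DN1 (SE 1.08, adjusted p = 0.0109), 6.21 in DN2a (SE 1.08, adjusted p = 0.00209) and 8.19 in DN2b (SE 1.13, adjusted p = 0.000772). Without DN1 replicate 2 the DN1 call was lost, at a log2FC of 3.39 and an adjusted p of 0.0951. The log2FC was 5.43 in DN1 without its replicate 1, 4.84 and 6.89 in DN2a without its replicate 1 or 2, and 6.77 and 8.89 in DN2b without its replicate 1 or 2. Without control replicate 1 it was 5.70, 7.18 and 9.16 in the order of the stages. DN2b over DN1 had a log2FC of 3.46 (SE 1.17), which edgeR did not call (adjusted p = 0.209) and DESeq2 did (adjusted p = 0.0341). It was 2.76 and 4.81 without DN1 replicate 1 or 2, and 2.05 and 4.15 without DN2b replicate 1 or 2. Rag1 is in a list of Notch dose-responsive genes that the study drew from these same libraries, so its rise is not independent evidence of that list's direction.

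Rag2, the regulatory subunit that Rag1 needs to cut, also had next to no reads in the control, with 0, 3, 3 and 3 counts. It had 56 and 59 counts in DN1, 202 and 35 in DN2a replicates 1 and 2, and 205 and 43 in those of DN2b. The levels were 0 to 0.119 CPM in the control, 2.47 and 3.19 CPM in DN1, 7.36 and 2.52 CPM in DN2a, and 13.3 and 3.48 CPM in DN2b. Replicate 2 of DN2a and of DN2b stayed near the DN1 level, and only replicate 1 of each lay well above it. The pooled ratio to the control was 34.5 in DN1 (interval 17.5 to 77.3), 70.6 in DN2a (36.6 to 156) and 110 in DN2b (57.2 to 244), from 9 control reads. By edgeR, Rag2 rose over the control with a log2FC of 4.83 (SE 0.83, adjusted p = 0.00336), 5.81 (SE 0.85, adjusted p = 0.000938) and 6.60 (SE 0.86, adjusted p = 0.000616) in DN1, DN2a and DN2b. The log2FC was 4.89 in DN2a without its replicate 1, and 5.28 and 7.28 in DN2b without its replicate 1 or 2. None of the steps between DN stages passed, and DN2b over DN1 had a log2FC of 1.77 (SE 0.90, adjusted p = 0.436), or 0.45 and 2.45 without DN2b replicate 1 or 2. A library at 0 counts allows up to 3, which is 0.145 CPM for Rag2 in control replicate 1 and 0.119 CPM for Rag1 and Dntt in control replicate 2.

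Dntt, the polymerase that diversifies junctions, was well above the control in all 3 stages and highest in DN2b. Its counts were 5, 0, 4 and 1 in the control, 106 and 107 in the DN1 libraries, 208 and 123 in those of DN2a, and 898 and 993 in those of DN2b. In CPM the control had 0 to 0.242, DN1 4.68 and 5.79, DN2a 7.58 and 8.84, and DN2b 58.4 and 80.4. The 4 groups did not overlap, and the replicates of a stage lay within 1.38 times of each other, unlike those of Rag1. The pooled ratio to the control was 57.5 in DN1 (interval 30.6 to 122), 88.8 in DN2a (47.7 to 187) and 757 in DN2b (411 to 1581), from 10 control reads. The edgeR log2FC over the control was 5.49 (SE 0.65, adjusted p = 0.000709), 6.33 (SE 0.65, adjusted p = 0.000218) and 9.40 (SE 0.69, adjusted p = 3.46e-05) in the order of the stages, and 6.25, 7.09 and 10.16 without control replicate 1. Dntt also rose in DN2b over DN1, with a log2FC of 3.91 (SE 0.70, adjusted p = 0.0281). This call was lost without either replicate of DN1, DN2a or DN2b, the adjusted p then ranging from 0.0563 without DN2a replicate 2 to 0.185 without DN1 replicate 1, while the log2FC stayed between 3.69 and 4.14. From DN2a to DN2b the log2FC was 3.07 (SE 0.67), with an adjusted p of 0.690 by edgeR and 1.08e-06 by DESeq2.

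Replicates of a stage disagreed for the recombinase genes in a way that Dntt did not share. Rag1 was 4.37 times higher in replicate 1 than in replicate 2 of DN2a and 4.13 times higher in replicate 1 of DN2b, and Rag2 was 2.93 and 3.83 times higher. Of all tested genes with reads in both libraries, 4.68% in DN2a and 2.81% in DN2b were at least 2 times higher in replicate 1, and 1.90% and 0.609% at least 3.5 times. In DN1 the order was turned, with Rag1 3.79 times and Rag2 1.29 times higher in replicate 2, where 8.48% of genes were at least 2 times and 3.05% at least 3.5 times higher in replicate 2. Ptcra, which encodes the pre-T cell receptor alpha chain and was set beside the recombinase after its values were seen, differed likewise. It was 5.29 and 5.66 times higher in replicate 1 of DN2a and DN2b and 1.79 times higher in replicate 2 of DN1. Replicates 1 and 2 of DN2a and DN2b carry different dates in their labels. DN1 replicate 1, the lower for Rag1, was also the DN1 library with the higher sums of granulocyte and monocyte markers, of 4 mast cell and basophil markers (1720 against 454 CPM) and of 5 erythroid and megakaryocyte markers (605 against 136 CPM). The part of these cells in the Rag1 difference was not tested.

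Within a library, Rag2 made up less of the recombinase transcripts in DN2b than in the other DN libraries, which is given without a test. Rag2 made up 72.7% and 47.6% of the summed Rag1 and Rag2 counts in DN1 replicates 1 and 2, and 44.7% and 54.7% in DN2a. In DN2b it was 27.7% (exact Clopper-Pearson 95% interval 24.5 to 31.1) in replicate 1 and 29.3% (22.0 to 37.3) in replicate 2. The DN2b libraries thus agree within counting error on a share below that of every DN1 and DN2a library, although their Rag1 levels differ. The control libraries had 3 to 5 such reads each, too few to place their share. The gene B230118H07Rik spans both recombinase genes, starts 31 bases from Rag1 on the same strand and shares 80 exon bases with Rag1 and 208 with Rag2. The strand setting of the counting is not given in the sources used here, so reads in those bases may have been left out or assigned to either gene. B230118H07Rik had 344 to 468 counts in the control libraries and 377 to 932 in the DN libraries, and rose over the control in DN2a (log2FC 1.18) and DN2b (0.99), far less than Rag1.

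**Figure D2:**
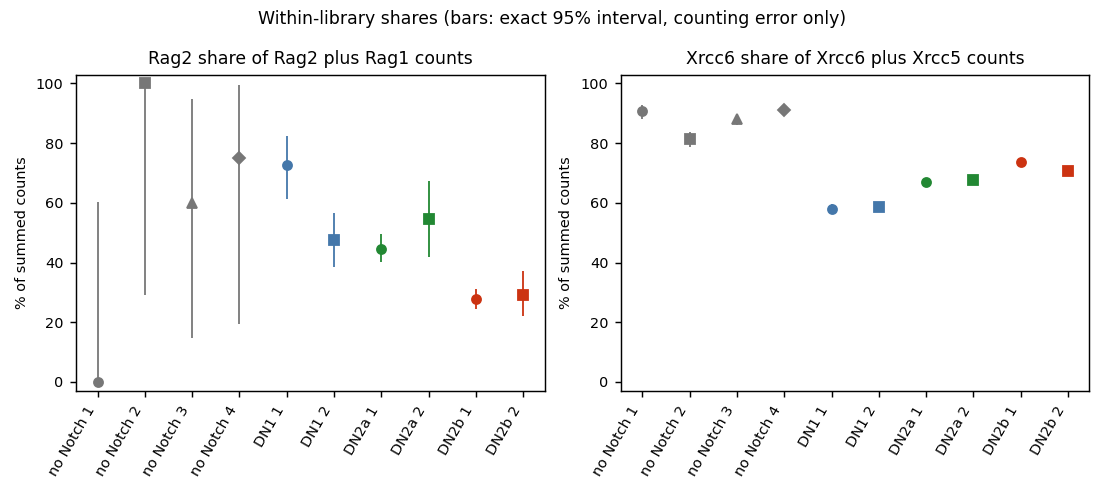
Share of Rag2 among Rag1 plus Rag2 counts (left) and of Xrcc6 among Xrcc5 plus Xrcc6 counts (right) in each library, in percent, with exact 95% intervals for counting error. Both DN2b libraries have the lowest Rag2 share of the DN libraries, and the Xrcc6 share runs from 58.1% in DN1 replicate 1 to 91.2% in control replicate 4.

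The Ku genes both rose over the control, Xrcc5 far more than Xrcc6. Xrcc5, which encodes Ku80, was at 2.71, 7.28, 4.21 and 4.62 CPM in the control, at 83.0 and 107.7 CPM in DN1, 109.5 and 80.4 CPM in DN2a, and 102.5 and 93.8 CPM in DN2b. All DN libraries lay far above the highest control library, and the DN stages overlapped. The log2FC over the control was 4.06 (SE 0.36, adjusted p = 0.000199) in DN1, 4.24 (SE 0.36, adjusted p = 9.50e-05) in DN2a and 4.29 (SE 0.36, adjusted p = 7.46e-05) in DN2b by edgeR. Between DN stages the Xrcc5 log2FC was 0.05 to 0.23, with no call. Xrcc6, which encodes Ku70, was at 26.5, 31.6, 30.8 and 47.9 CPM in the control, 115 and 153 CPM in DN1, 221 and 169 CPM in DN2a, and 287 and 225 CPM in DN2b. No 2 groups overlapped, and the order was control, DN1, DN2a, DN2b. The Xrcc6 log2FC over the control was 1.73 (SE 0.24, adjusted p = 0.00131), 2.46 (SE 0.24, adjusted p = 0.000170) and 2.85 (SE 0.24, adjusted p = 6.95e-05) along that order. DN2b over DN1 had a log2FC of 1.12 (SE 0.29), not called by edgeR (adjusted p = 0.103) and called by DESeq2 (adjusted p = 0.00583).

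Ku70 and Ku80 act as a heterodimer, while their transcripts were not held in one ratio. Xrcc6 made up 90.7%, 81.3%, 88.0% and 91.2% of the summed Ku counts in the control libraries. The DN1 libraries had 58.1% and 58.6%, those of DN2a 66.9% and 67.8%, and those of DN2b 73.7% and 70.6%. The 4 groups did not overlap in this share. Xrcc6 shares 344 exon bases (7.69% of its exons) with Desi1 on the opposite strand, and Xrcc5 has no annotated neighbour in its span.

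The hairpin-opening genes moved in opposite directions. Prkdc, the kinase, was at 11.7, 10.8, 9.30 and 22.6 CPM in the control, at 32.3 and 34.5 CPM in DN1, 25.0 and 31.8 CPM in DN2a, and 27.6 and 29.9 CPM in DN2b. The DN libraries were all above the control, where replicate 4 lay nearest to them. Prkdc rose with a log2FC of 1.07 (SE 0.30, adjusted p = 0.0254), 1.03 (SE 0.30, adjusted p = 0.0209) and 1.04 (SE 0.30, adjusted p = 0.0215) in DN1, DN2a and DN2b by edgeR. Each of these calls was lost when either library of the DN stage was left out, with adjusted p from 0.0519 without DN2a replicate 1 to 0.161 without DN2a replicate 2, and the DN1 call also without control replicate 3 (adjusted p = 0.0588). Mcm4, a replication helicase subunit whose start lies 466 bases from that of Prkdc on the opposite strand, rose by a like amount, with a log2FC of 1.07, 1.16 and 1.18.

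Dclre1c, the nuclease Artemis, was the only one of the 10 genes that fell in Notch-exposed cells. It was at 16.4, 9.61, 17.7 and 23.7 CPM in the control, and at 8.88 and 6.81 CPM in DN1, 7.76 and 7.19 CPM in DN2a, and 7.29 and 7.45 CPM in DN2b. The 6 DN libraries were closely grouped below the control, where replicate 2 came near them. By edgeR, Dclre1c fell with a log2FC of -1.35 (SE 0.33, adjusted p = 0.0152), -1.22 (SE 0.33, adjusted p = 0.0153) and -1.24 (SE 0.33, adjusted p = 0.0156) in DN1, DN2a and DN2b. The calls were lost without DN1 replicate 2 in DN1 (adjusted p = 0.0936) and without either library of DN2a (0.0930 without replicate 1, 0.0953 without replicate 2) or of DN2b (0.0890 and 0.0809). Dclre1c shares 357 exon bases (3.83%) with Suv39h2 on the opposite strand.

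The ligation genes did not follow the recombinase from the start. Lig4, the ligase of end joining, was at 6.06, 3.32, 6.45 and 5.36 CPM in the control, 5.74 and 6.33 CPM in DN1, 9.91 and 9.49 CPM in DN2a, and 16.6 and 29.5 CPM in DN2b. DN1 lay within the control's range, DN2a just above it and DN2b well above both. Lig4 rose over the control in DN2b, with a log2FC of 2.04 (SE 0.34, adjusted p = 0.00192 by edgeR). The DN2a difference of 0.80 (SE 0.35, adjusted p = 0.0872) was not called, and in DN1 the log2FC was -0.07 (SE 0.36, adjusted p = 0.896), whereas the mean without TMM scaling was 6.04 CPM in DN1 and 5.30 CPM in the control. DN2b over DN1 was called with a log2FC of 2.11 (SE 0.43, adjusted p = 0.0436). That call held without control replicate 2 and was lost without any of the other 9 libraries, with adjusted p from 0.0531 without control replicate 1 to 0.269 without DN1 replicate 1, and a log2FC of 1.68 to 2.44. In the 6 DN libraries alone Lig4 was not called with the replicate block (adjusted p = 0.0534) or without it (0.0543). Lig4 starts 21 bases from Abhd13 on the opposite strand, which had a log2FC of 0.43 in DN2b over DN1 (adjusted p = 0.512).

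Xrcc4, the partner that stabilises ligase IV, was the only one of the 10 genes with no call in any comparison. It was at 18.3, 16.6, 15.9 and 14.8 CPM in the control, 8.26 and 18.1 CPM in DN1, 11.4 and 21.1 CPM in DN2a, and 13.0 and 23.6 CPM in DN2b. Replicate 1 of each DN stage lay below all control libraries and replicate 2 near or above the highest of them. Replicate 2 was the higher in each stage, by 2.19, 1.85 and 1.81 times over replicate 1. Within each replicate number the level rose from DN1 to DN2a to DN2b, although the pairing with DN1 is uncertain. With the replicate block, DN2b over DN1 had a log2FC of 0.71 (SE 0.26), which edgeR did not call (adjusted p = 0.242). The log2FC over the control was -0.58 (SE 0.44), -0.10 (SE 0.43) and 0.05 (SE 0.43), with adjusted p of 0.344, 0.865 and 0.934 by edgeR. The DN1 value was -0.08 without its replicate 1 and -1.34 without its replicate 2 (adjusted p = 0.914 and 0.118).

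Hmgb1, the DNA-bending cofactor and the most abundant transcript of the 10, was at 268, 267, 395 and 631 CPM in the control, 1237 and 802 CPM in DN1, 1248 and 862 CPM in DN2a, and 1325 and 732 CPM in DN2b. All DN libraries were above the control, the nearest by little (732 against 631 CPM), and replicate 1 was the higher in each stage by 1.54, 1.45 and 1.81 times. Hmgb1 rose with a log2FC of 1.15 (SE 0.35, adjusted p = 0.0348), 1.40 (SE 0.35, adjusted p = 0.0107) and 1.38 (SE 0.35, adjusted p = 0.0127) in DN1, DN2a and DN2b by edgeR. The DN1 call was lost without any of 5 libraries: DN1 replicate 1 (adjusted p = 0.181), DN1 replicate 2 (0.0686), DN2a replicate 2 (0.0508), control replicate 1 (0.0735) and control replicate 3 (0.0732). The DN2a and DN2b calls were lost without replicate 1 of the same stage (adjusted p = 0.0935 and 0.169), and the DN2b log2FC was then 0.85. Hmgb1 has many processed copies in the mouse genome, and reads that map to several places were not assigned to a gene, so its level is uncertain.

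Per kilobase of annotated exon, which allows a rough comparison of levels between genes, Hmgb1 stood highest in DN2b at 205 CPM per kilobase. The length is the union of all annotated exons, and the annotation used for the counting is not known. A gene with long exons that are not used may thus come out too low. Xrcc6 followed at 57.3, Xrcc5 at 38.4 and Dntt at 30.3 CPM per kilobase. The means of Lig4 (4.43), Xrcc4 (4.34), Rag1 (3.27), Rag2 (2.46), Prkdc (2.18) and Dclre1c (0.791 CPM per kilobase) were lower. The order among these turned between the libraries, with Rag1 at 5.26 and Rag2 at 3.89 CPM per kilobase in replicate 1, above Lig4 (3.19) and Xrcc4 (3.09), and at 1.27 and 1.02 in replicate 2, below Lig4 (5.66) and Xrcc4 (5.59). In the control Rag1, Rag2 and Dntt were at 0.0107, 0.0222 and 0.0424 CPM per kilobase.

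Other genes of the joining and break response moved less than these 10. Of 23 such genes, all tested, 2 rose in DN1 over the control, and 3 rose in both DN2a and DN2b, beside 14.3%, 21.2% and 19.9% of all genes called higher. None was called between DN stages by edgeR, where 1 had an unadjusted p under 0.05 in DN2a over DN1 and none in the other 2 comparisons. Atm, the kinase that signals breaks, rose in DN1, DN2a and DN2b with a log2FC of 1.28, 1.17 and 1.19. Trp53bp1, which protects ends, rose in DN1 (1.01), and Mre11a, a nuclease subunit, rose in DN2a (1.01) and DN2b (0.86), as did the gap-filling polymerase gene Poll (1.21 and 0.87). The median log2FC of the list was 0.31, 0.29 and 0.07, against 1.44, 1.93 and 2.44 for the 10 genes.

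Proliferation genes were measured beside the 10 genes. Of 16 such genes, 7 rose in DN1, 13 in DN2a and 7 in DN2b over the control, and none fell, beside 14.3%, 21.2% and 19.9% of all genes called higher. Their summed level was 2358 to 4527 CPM in the control, 6068 to 6604 CPM in DN1, 6004 to 7610 CPM in DN2a and 3950 to 6477 CPM in DN2b. Control replicate 4, with the highest sum of the control libraries, also had the highest Prkdc, Xrcc6 and Hmgb1 of them, and the highest Dclre1c, which fell in the DN stages. From DN2a to DN2b 1 of the 16 had a positive log2FC (median -0.37), where Lig4 had 1.23 and Xrcc6 0.40, and none of these was called. The part of proliferation in the differences of the 10 genes was not tested. Their median log2FC over the control was 0.64, 1.08 and 0.72.

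**Figure D3:**
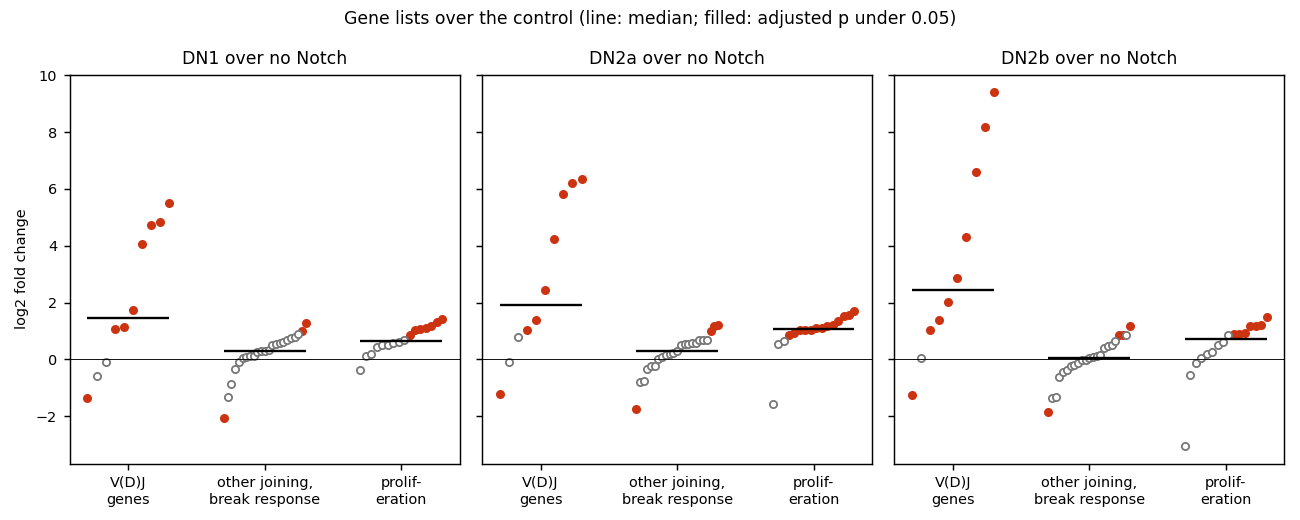
Fitted log2 fold change of each gene over the no Notch control in DN1, DN2a and DN2b, for the 10 V(D)J genes, 23 other joining and break response genes and 16 proliferation genes, with a line at each median. Filled points have an adjusted p under 0.05. The V(D)J genes reach 5.49, 6.33 and 9.40, whereas the highest value of the break response list is 1.28.

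Factors known to act at the Rag locus were measured in 14 genes, of which 12 were tested. Over the control 4 rose in DN1, 4 in DN2a and 7 in DN2b, and none fell, beside 14.3%, 21.2% and 19.9% of all genes called higher and 31.4%, 45.5% and 42.5% called in either direction. Gata3, a T lineage regulator, rose with a log2FC of 6.06, 7.34 and 7.82, and Bcl11b, a commitment factor, with 3.97, 6.72 and 7.63. The E protein gene Tcf12 rose in all 3 stages (0.83, 1.38 and 1.76), and the chromatin organiser Satb1 rose in DN2a (1.48) and DN2b (2.32). The E protein gene Tcf3 rose in DN1 (1.26). DN2b over DN1, the comparison in which Dntt and Lig4 were called, also gave Bcl11b (3.66), Ets1 (2.42) and Gata3 (1.76). The B lineage regulator gene Pax5 had 1 read in all 10 libraries together, and Ebf1 had 56 reads in DN2b replicate 2 and at most 4 in any other library.

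Rearranging B lineage cells also use this machinery, so their markers were measured beside it. The summed level of 7 B lineage markers was 12.8 to 70.8 CPM in the control and 5.85 to 13.8 CPM in the DN libraries, most of the latter from Cd79b. The top of the control range came mostly from Blnk, at 3.16 to 64.7 CPM there and at most 4 reads in any DN library. Blnk fell in all 3 stages by edgeR (log2FC -9.69, -9.61 and -7.19), and Cd79b, the other of the 2 tested, was not called. Cd79a had at most 6 reads in any library, Ms4a1 at most 3, and Pax5 1. The summed level of 5 genes used to mark plasmacytoid dendritic cells was 110 to 216 CPM in the control, 64.9 to 69.4 CPM in DN1, 94.7 to 130 CPM in DN2a and 144 to 164 CPM in DN2b, most of it from Bst2. Of these, Siglech had 0 reads in the 4 DN2a and DN2b libraries and Klk1 had 0 in all 10, whereas Ly6d rose over the control with a log2FC of 4.74, 8.00 and 9.24, to 43.3 CPM in DN2b. Bst2 fell in DN1 (-1.68) and DN2a (-0.93). The part of other cell types in the levels of the 10 genes was not tested. Of 17 surrogate light chain and antigen receptor genes looked up, 5 had a row. Among them Ptcra rose over the control with a log2FC of 4.18, 3.94 and 5.75, and the surrogate light chain gene Vpreb1 rose with 2.27, 3.62 and 3.96 from at most 5 reads per control library. Vpreb2, Vpreb3 and Igll1 had at most 9 reads in any library.

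The genes whose log2 level correlated best over the 10 libraries with that of each lymphoid member differed between them. Among 10485 genes, by Pearson correlation of log2(CPM + 1), Rag1 was most like Frmd6 (r = 0.98), Rnf157 (0.97), 5830416I19Rik (0.97), Sar1a (0.96) and Slc29a1 (0.96). Rag2 was most like Tmem42 (0.98), Acaa2 (0.97), Nudt16l1 (0.97), Psmb10 (0.97) and the recombination gene Xrcc2 (0.97). Dntt was most like Sidt1 (0.99), Cdh1 (0.97), Kansl1l (0.97), Nsg2 (0.97) and Grap2 (0.96). The points share libraries and depth, and each r describes 10 libraries in 4 groups. A high r does not mean a change of like size. From the control to DN2b the mean of Tmem42 went from 4.40 to 8.12 CPM, and that of Rag2 from 0.0762 to 8.41 CPM. Sidt1 went from 0.00707 to 24.1 CPM, and Dntt from 0.0973 to 69.4 CPM.

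Promoters of the lymphoid genes were poor in CpG, taken as below the median of all windows. Those of 3 of the 6 end-joining genes, with Prkdc not analysed, were rich, taken as above the upper quartile. Rag1 and Dntt also lay below the lower quartile of 0.176, and Rag2 lay above it. In 300-base RefSeq windows, the observed over expected CpG ratio was 0.165 for Rag1, 0.216 for Rag2 and 0.149 for Dntt, at percentiles 23.3, 31.2 and 20.8 of all 32841 windows, whose median was 0.384. Xrcc6 (1.04), Xrcc4 (0.970), Lig4 (0.857 and 0.938 in 2 windows) and Hmgb1 (1.01 and 0.742) lay above the upper quartile of 0.750 in all but 1 window of Hmgb1. Xrcc5 (0.527) and Dclre1c (0.505) lay in between, and Prkdc was not analysed here. Over the control, the 4 genes with the largest fitted rises were the CpG-poor Rag1, Rag2 and Dntt, and Xrcc5 with its intermediate window, whereas in DN2b over DN1 the called genes were the CpG-poor Dntt and the CpG-rich Lig4.

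**Figure D4:**
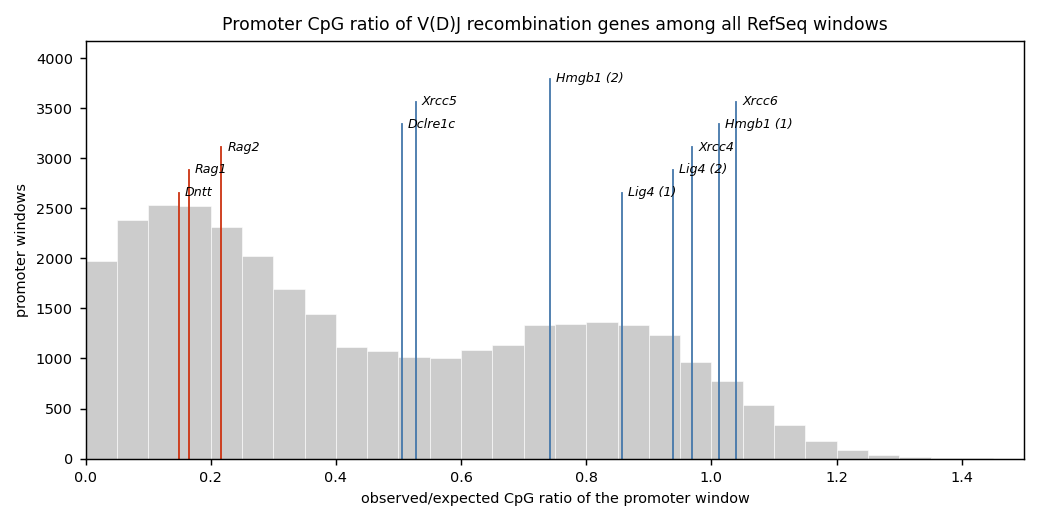
Observed over expected CpG ratio of all RefSeq promoter windows (grey histogram, number of windows) with lines at the windows of 9 of the 10 genes. Dntt, Rag1 and Rag2 (red) sit in the low peak below 0.25, and Lig4, Xrcc4, Xrcc6 and the first Hmgb1 window sit above 0.75.

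Motif letters were searched on both strands of the same 11 windows. The Runx letters TGTGGT were found in 1 window, that of Rag1, with 2 matches, and 16.8% of all windows hold them. The RBPJ core TGGGAA, the letters bound by the factor that Notch activates, was found in Rag1 and in 1 window of Lig4, and 25.6% of all windows hold it. GATA letters were in 5 of 11 windows (57.9% of all), with 5 matches in Rag1. The E-box CANNTG was in 10 windows (72.3% of all), the Ets core GGAA in 11 (96.0%), the Ikaros letters GGGAA in 10 (62.7%) and the Myb letters AACTG in 4 (44.8%). TGGGAA holds GGGAA, which holds GGAA, so these matches overlap, and a match is no evidence of binding. The base from which the Rag1 window was counted is also the annotated start of B230118H07Rik, so the window belongs to both genes.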

How the data were processed

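RNA-seq of 10 mouse libraries was used. The authors aligned the first 36 bases of read 1 to mm10 with TopHat2 2.12, counted reads per gene with HTSeq 0.6.1p1 (intersection-strict) and deposited raw counts per gene symbol. The annotation and strand setting of the counting are not given in the sources used here. Summary lines were dropped, and 27 symbols turned into dates were left as they are. CPM used the total over gene rows. Genes reaching 1 CPM in 2 or more libraries were tested in one model of 4 groups with edgeR 4.0.16 (quasi-likelihood, TMM, prior count 0.125) in R 4.3.3, adjusted by Benjamini-Hochberg over 12221 genes with a threshold of 0.05. The SE is the log2FC divided by the square root of F. The test was run on simulated counts in which 200 genes had a known change. Every simulated gene had the same spread between libraries (dispersion), below the common value of 0.189 fitted here. That run therefore checks the code and not the error rate in these data. DESeq2 1.42.0 was an alternative. The members and lists were chosen with earlier results of these data known. All 10 members are named, and of each list the called genes with the 4 largest differences, except for items that are not reported here.

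Replicates of the DN stages were numbered by the date in their titles and those of the control by label. The study states independent LSK isolates, with the DN stages sorted from each, without naming the libraries of each isolate. The date is shared by DN2a and DN2b but not by DN1, and the replicate differences correlated across genes at 0.0805 (DN1 with DN2a), 0.313 (DN1 with DN2b) and 0.226 (DN2a with DN2b), so the replicate block was kept as an alternative. P-values measure the spread between these libraries. Gene positions and exon lengths are from GENCODE vM21 and promoters from RefSeq GRCm38.p6, which held windows for 9 of 10 members.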

Additional observations from a re-analysis of the deposited data

How the results depend on the processing

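DN2b over DN1 was the comparison most sensitive to the processing. Its 2 calls became 4 with DESeq2, and 1 with library size only, with no filter on low counts, and with only the groups compared. With the replicate block in a fit of the 6 DN libraries it was 1, and also 1 without the block in the same libraries, an alternative chosen after seeing the data. Lig4 was the call lost in both (adjusted p = 0.0534 with the block and 0.0543 without it), so the block itself changed no call of the 10 genes. Over all genes, DN2b over DN1 had 238 calls with the block and 180 without it in the same 6 libraries (233 in all 10), and DN2a over DN1 had 67 and 32 (49 in all 10). Leaving out 1 library gave 0 to 2 calls in DN2b over DN1, 4 to 8 in DN1 over the control (lowest without DN1 replicate 2), 5 to 8 in DN2a over the control (lowest without DN2a replicate 1), 6 to 9 in DN2b over the control, and 0 in both DN2a over DN1 and DN2b over DN2a. DESeq2 called 1 member in DN2b over DN2a. Over all genes DESeq2 called 474 in DN2a over DN1, 29 in DN2b over DN2a and 822 in DN2b over DN1, against 49, 0 and 233 with edgeR. Scaling by library size only moved the median log2FC of all genes by 0.26 in DN1 over the control, and by -0.20 and -0.19 in DN2a and DN2b over DN1. The Dclre1c call in DN1 was then lost (log2FC -1.10, adjusted p = 0.0532). With only the control libraries labelled D1 and D2, the Dclre1c calls in all 3 stages and the Rag1 call in DN1 (adjusted p = 0.0931) were lost, and with only R1 and R2 the Prkdc calls in all 3 stages and the Hmgb1 call in DN1. The DN1 calls of Prkdc and Hmgb1 were also lost with only the groups compared. No called difference changed sign in the settings run, while the uncalled Lig4 difference of DN1 from the control was below 0 with TMM and above 0 on plain CPM. Over the single members and comparisons whose log2FC exceeded its SE, 385 values kept their side of the threshold and 35 lost it when 1 library was left out, and 275 kept it, 16 lost it and 3 gained it under the other settings. The cause of these changes was not tested. Depth limits Rag1, Rag2 and Dntt in the control, where 7, 9 and 10 reads in all set the fold.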
